A study of Mus musculus with 661 samples.

Results

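The genes described here are those encoded by mitochondrial DNA, taken as every gene whose symbol starts with mt- in the count table. These were 37 of 45808 gene symbols, and all 37 matched annotated genes of the mitochondrial chromosome: 2 ribosomal RNAs (rRNAs), 22 transfer RNAs (tRNAs) and 13 messenger RNAs (mRNAs). Mitochondrial DNA is transcribed as long RNAs that are cut at the tRNAs, and its mRNAs encode core subunits of the respiratory chain complexes I, III and IV and of the ATP synthase, complex V. All other subunits, and the factors that copy, transcribe and translate mitochondrial DNA, are encoded in the nucleus. In the bone marrow stroma these complexes work in cells with very different roles, from perivascular mesenchymal cells that nourish blood stem cells to bone-forming progenitors and the endothelium of arterioles and sinusoids.

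The study asked how aging remodels the stromal cells of mouse bone marrow, and sequenced 661 single cells sorted into plates, each of them a library of its own. The mice were wild-type C57BL/6 animals, young (about 2 months) or old (about 24 months), and the groups are defined by age and sorted population. From the endosteum came mesenchymal stromal cells positive for Sca-1 (MSC-S), osteoprogenitors positive for PDGFRα (mOPr, multipotent), osteoprogenitors negative for it (OPr) and arteriolar endothelial cells (AEC). From the central marrow came mesenchymal stromal cells positive for LepR (MSC-L) and sinusoidal endothelial cells (SEC).

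Young and old cells numbered 53 and 58 for MSC-L, 59 and 59 for MSC-S, 26 and 26 for mOPr, 44 and 29 for OPr, 84 and 82 for AEC, and 70 and 71 for SEC. Total counts per cell had a median of 425611 and ran from 58034 to 1503374. The authors had removed cells with more than 20% mitochondrial reads, so the upper end of the share is bounded by that filter. The labels name no mouse for any cell, so each age of a population was 1 sample and its differences have no replicate check. The numbers in the cells' titles fall into 3 ranges, which are given as a split: AEC lie in all 3, the mesenchymal populations in ranges 1 and 2, and SEC in range 3 alone.

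Most sorted populations carried the markers of their labels. All 8 MSC-L markers reached 10 CPM (counts scaled to the nuclear total) in young and old MSC-L, with Cxcl12 the highest, and all 8 MSC-S markers did so in MSC-S. Of 8 OPr markers 7 did so in young OPr and in mOPr of both ages, with Dmp1, a gene of later bone cells, below it. The OPr markers did not set OPr apart, since they summed to 5185 CPM in young and 3844 CPM in old OPr but to 11553 CPM in young MSC-L. All 10 endothelial markers did so in AEC and SEC, all 7 AEC markers in AEC, and of 6 measured SEC markers 5 did so in SEC, with Lyve1 below it. Markers of other populations were seen as well. The 8 MSC-L markers summed to 21850 CPM in old and 1039 CPM in young mOPr, and to 23527 CPM in old and 6057 CPM in young OPr. All 8 also reached 10 CPM in young SEC (6984 CPM together, against 59392 CPM in young MSC-L). The MSC-S markers summed to 3849 CPM in young and 4277 CPM in old AEC, above MSC-S (3127 and 3954 CPM). Of these 8 markers 4 reached 10 CPM in young and 5 in old AEC. In old SEC 7 of 15 hematopoietic markers (396 CPM together) and 6 of 7 AEC markers reached 10 CPM. The hematopoietic markers were highest in old OPr, where 14 of 15 of them reached 10 CPM and summed to 10363 CPM, with S100a9, a neutrophil protein, the highest at 4041 CPM and none at 0. In young OPr the same list summed to 24.5 CPM. Of the 29 old OPr cells, 8 held at least 7 of the 15 markers, and values of old OPr without them are added to its comparison between ages and where noted.

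Across all 661 cells, 1.70% of the counts were mitochondrial. The 2 rRNA genes held 70.7% of these counts, the 13 mRNA genes 29.3% and the 22 tRNA genes 0.0667%. The large rRNA mt-Rnr2 (the 16S RNA of the mitochondrial ribosome) was the highest gene, with 62.4% of the mitochondrial counts and 6809 CPM per kilobase of gene. The small rRNA mt-Rnr1 (12S), cut from the same precursor, held 8.28% and stood at 1496 CPM per kilobase. The cDNA was primed with oligo-dT, so levels per kilobase, here and below, compare counts and not RNA amounts. The part of priming in the differences between genes was not tested. Each of the 661 cells held counts of mt-Rnr2, mt-Rnr1 and mt-Cytb.

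Among the mRNAs, mt-Cytb was the highest over the whole gene, with 13.1% of the mitochondrial counts and 1971 CPM per kilobase. It encodes a core subunit of complex III, the complex that carries electrons to cytochrome c. mt-Nd1, a membrane subunit of complex I, stood at 860 CPM per kilobase, and mt-Co1, the catalytic core of complex IV, at 631 CPM per kilobase. The other long complex I subunits were lower, with mt-Nd2 at 285, mt-Nd4 at 221 and mt-Nd5 at 181 CPM per kilobase. mt-Nd6, the complex I subunit and sole mRNA of the light strand, stood at 102 CPM per kilobase. Reads were assigned ignoring strand, so counts of mt-Nd6, as of every gene here, cannot be split by strand. Together the 7 complex I subunits held 10.5% of the mitochondrial counts and the 3 subunits of complex IV 5.70%.

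The remaining 6 mRNAs had far fewer counts assigned to them, although they encode subunits of the same complexes and lie beside the others on the chromosome. mt-Co3, of complex IV, had 2203 counts in all cells together, or 9.18 CPM per kilobase. mt-Atp6, the proton channel of complex V, had 1519 counts and mt-Co2, the subunit of complex IV that takes up electrons from cytochrome c, 704. mt-Atp8, of complex V, had 163 counts, and the small complex I subunits mt-Nd3 and mt-Nd4l had 126 and 83. Those 6 genes lie side by side, interrupted only by tRNA genes, and all other mRNAs lie outside or at the edges of that stretch.

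**Figure D1:**
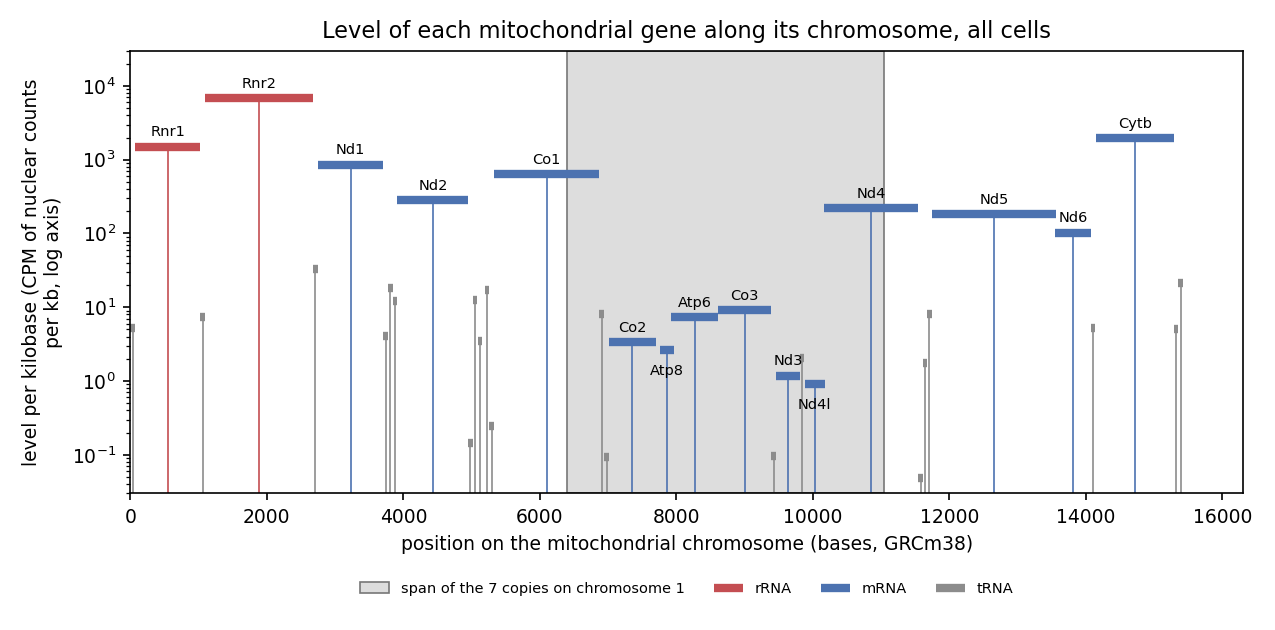
Level of each of the 37 genes along the mitochondrial chromosome (horizontal axis, bases of GRCm38; vertical log axis, CPM of nuclear counts per kilobase of gene, all 661 cells summed), with rRNA, mRNA and tRNA genes in separate colours. The shaded span, matched by 7 annotated genes of chromosome 1, holds the 6 mRNA genes with the fewest assigned counts per kilobase, from mt-Co3 at 9.18 to mt-Nd4l at 0.913, while mt-Co1 and mt-Nd4 cross its edges at 631 and 221; mt-Tk had 0 counts and is not drawn.

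The stretch with few counts had a counterpart in nuclear DNA. A search of the annotated transcripts for exact matches of at least 50 bases found 15 nuclear genes that copy parts of 10 mitochondrial genes, of which 14 were in the count table with 10255 counts together. Of these, 7 lie on chromosome 1, minus strand, at chr1:24611535-24616184 (GRCm38), a span of 4650 bases, in the same order as the 4649 bases from 6394 to 11042 of the mitochondrial chromosome. The distances between neighbouring genes were equal on both chromosomes except for 1 gap of 73 bases on the mitochondrial side and 74 on the nuclear side.

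The 5 mitochondrial genes copied over 98.3% to 100% of their length were mt-Co2, mt-Co3, mt-Atp6, mt-Nd3 and mt-Nd4l. With mt-Atp8, which overlaps mt-Atp6 by 43 bases and otherwise lies in a gap of 233 bases that is equally long on both chromosomes, these are the 6 mRNAs with few counts. The 5 held 4635 counts, or 0.0877% of the mitochondrial counts, and the 7 nuclear genes of chromosome 1 held 6959. Of the genes copied in part, mt-Co1 is copied over 74.9% of its length and mt-Nd4 over 63.6%. Divided by its uncopied bases alone, the level of mt-Co1 was 2512 CPM per kilobase, above that of mt-Cytb, so the first place among the mRNAs depends on that choice.

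The sequences show how little separates the copies. The pair below gives the first 60 bases of mt-Nd3 (chrM:9459-9518, plus strand) and of its copy Gm28438 (chr1:24613060-24613119, minus strand), in GRCm38, with the mismatching base in capitals. Counted from 1 at the 5′ end, the mitochondrial gene differs from the copy by T3C, the only mismatch in 345 aligned bases.
mt-Nd3: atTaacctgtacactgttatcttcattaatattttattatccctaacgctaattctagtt
Gm28438: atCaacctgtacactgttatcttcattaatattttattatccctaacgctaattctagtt

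For mt-Co2 and its copy Gm28661 there were 0 mismatches over 681 aligned bases. Their first 60 bases are printed because no base of that aligned stretch could assign a read to either gene (chrM:7013-7072, plus strand, and chr1:24615506-24615565, minus strand, in GRCm38; capitals would mark a mismatch, and there are none).
mt-Co2: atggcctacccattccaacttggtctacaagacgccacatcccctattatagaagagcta
Gm28661: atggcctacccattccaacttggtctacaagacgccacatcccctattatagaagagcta

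The authors kept reads with a single location in the genome. How much of the low counts of the copied genes comes from that step was not tested, since the reads themselves were not at hand. The values of these 5 genes are therefore counts assigned to them and not amounts of their RNA.

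The tRNA genes were near the limit of detection, and 21 of 22 had at least 1 count. mt-Tl1, the leucine tRNA that follows mt-Rnr2, had 757 counts in all cells, mt-Tp (proline) 436, mt-Tq (glutamine) 392 and mt-Tc (cysteine) 346. mt-Tk (lysine) had 0. The 5 tRNA genes inside the copied stretch had a median of 2 counts and the 17 outside it a median of 110. The genes are 59 to 75 bases long and all 22 lie within 3 bases of a neighbouring gene.

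The share of mitochondrial counts was similar in the sorted populations, and no population held a range of its own. Among young cells the median share per cell was highest in AEC, at 1.85%, and lowest in MSC-L, at 1.27%. Among old cells it was highest in AEC, at 1.83%, and lowest in OPr, at 1.19%. The order of the young medians from high to low was AEC, OPr, MSC-S, SEC, mOPr and MSC-L, and every neighbour in that order overlapped widely with the next.

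Young MSC-L ran from 0.499% to 5.90% with a median of 1.27%, and old MSC-L from 0.395% to 8.87% with a median of 1.61%. Young MSC-S ran from 0.537% to 5.18% with a median of 1.44%, and old MSC-S from 0.0148% to 4.67% with a median of 1.28%. The ages of each overlapped nearly over the whole range. In mOPr, the young cells ran from 0.692% to 2.69% with a median of 1.39% and the old cells from 0.810% to 4.50% with a median of 1.35%.

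OPr and AEC had the widest spreads among young cells. Young OPr ran from 0.0931% to 12.9% with a median of 1.48%, and old OPr from 0.0431% to 13.1% with a median of 1.19%. Young AEC ran from 0.431% to 14.9% with a median of 1.85%, and old AEC from 0.660% to 11.4% with a median of 1.83%. SEC were the narrowest of the endothelial cells, with young cells from 0.597% to 2.70% (median 1.41%) and old cells from 0.762% to 8.10% (median 1.36%).

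**Figure D2:**
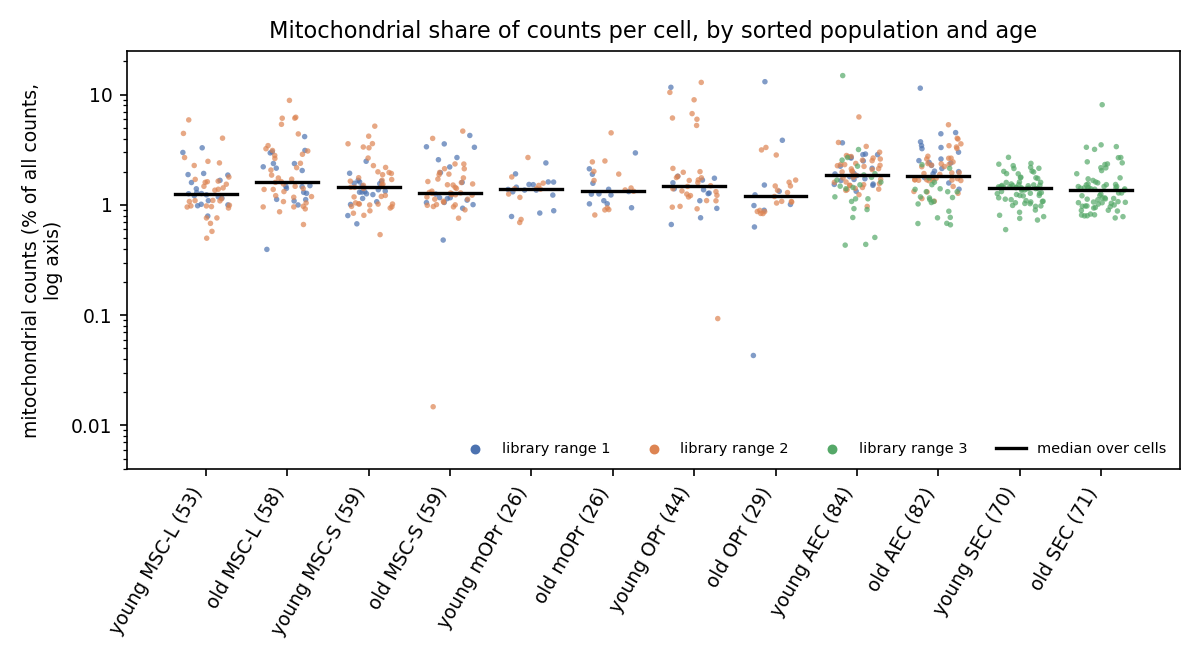
Mitochondrial share of all counts per cell (log axis, percent) in the 12 groups of sorted population and age, 1 point per cell, coloured by library range, with cell numbers in parentheses and a bar at the median over cells. The groups overlap, their medians lie between 1.19% (old OPr) and 1.85% (young AEC), and the points above 5% are mostly young OPr (8 cells) and old MSC-L (5 cells).

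The first comparison asked whether the mitochondrial share differed between ages within a sorted population. It was higher in old MSC-L than in young MSC-L and nearly equal between ages in MSC-S, OPr, AEC and SEC when the counts of all cells were summed. Over single cells old OPr were lower than young OPr, with medians of 1.19% against 1.48% and means of 1.81% against 2.66%. In old MSC-L 1.97% of the summed counts were mitochondrial (exact Clopper-Pearson 95% interval 1.97% to 1.98%, counting error only) and in young MSC-L 1.46% (1.45% to 1.46%). The log2 ratio of old over young was 0.44, which is short of the 1.5-fold used for calls throughout.

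The old MSC-L stayed above the young in both library ranges and in the clusters that hold most of them. The log2 ratio was 0.32 in library range 1 and 0.50 in library range 2, and 0.35 between the medians over cells. The deposited clusters (iterative clustering and guide-gene selection, ICGS) place most MSC-L in M1 and M2, and of the sorted cells 33 old and 39 young lay in M1, 23 old and 12 young in M2 and 2 old and 2 young in M5. Within M1 the pooled share was 1.44% in old and 1.20% in young MSC-L, and within M2 it was 3.28% in old and 2.48% in young MSC-L. The few cells in M5 had the opposite order, with 0.698% in old and 1.53% in young MSC-L. A larger number of old MSC-L thus lay in the cluster with the higher share, and the share was also higher in old cells inside M1 and M2.

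Other values differed between the ages of MSC-L as well. Old MSC-L had fewer counts (median total 357288 against 468565) and fewer genes when each cell was thinned to 50000 counts (median 3963.5 against 4380), and the share fell with the total across cells (Spearman rho −0.54 in young and −0.45 in old MSC-L). The hematopoietic markers summed to 92.3 CPM in old and 25.2 CPM in young MSC-L (4 of 6 tested higher by over 1.5-fold, median log2 ratio 1.99) and 4 of 6 erythroid markers were higher (1.64), against 24.6% of all genes. Per the paper, MSC-L were gated as negative for the surface proteins CD45 and Ter119. The part of depth and of other cell types in the difference was not tested.

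In mOPr the pooled share was 1.55% in old and 1.37% in young cells (log2 ratio 0.18), but the medians over cells had the opposite order (log2 ratio −0.050). The ages of mOPr also differed in clusters and markers. Old mOPr lay in M1 (4 cells), M2 (10) and M5 (12), and young mOPr mainly in M5 (7), M15 (7) and M12 (4), with 2 in M2. The MSC-L markers had a median log2 ratio of 3.61 in old over young mOPr, with 7 of 8 higher by over 1.5-fold (35.1% of all genes), and their part in the share ratio was not tested.

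In AEC the pooled share was 2.17% in old and 2.03% in young cells (0.095), with a log2 ratio of 0.48 in library range 1 and −0.42 in library range 3 (−0.25 without the young AEC with 14.9%, left out after seeing the data), so the ages of AEC had no common direction. In MSC-S it was 1.505% in old and 1.52% in young cells (−0.015), in OPr 1.76% and 1.82% (−0.052), and in SEC 1.39% at both ages (0.0069). Markers of other populations differed between the ages of SEC, with 6 of 7 AEC markers (median log2 ratio 2.46) and 7 of 9 hematopoietic markers (2.95) higher in old SEC, against 23.2% of all genes. The erythroid markers (4 of 4, −1.43) and 5 of 8 MSC-L markers (−0.64) were lower there, against 15.9%. In old SEC 1 cell held at least 7 hematopoietic markers, and the pooled share without it was 1.40%. In old AEC 4 of 5 SEC markers were lower (−1.56, against 21.6%), as were 4 of 7 MSC-L markers with 1 higher (−0.92). Of 10 mesenchymal markers 6 were higher and 2 lower there (0.86, against 18.3% and 21.6%). The part of these markers in the share was not tested.

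The ages of OPr differed in their clusters, with 15 old and 14 young cells in M5 but 7 old and 3 young cells in M1, 3 old cells in M2, 1 old and 15 young cells in M3 and 5 young cells in M15. The MSC-L markers had a median log2 ratio of 1.54, with 7 of 8 higher in old OPr, against 36.1% of all genes. What part they have in the share ratio was not tested.

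The OPr values rested on few cells. A single old OPr cell held 20.9% of the mitochondrial counts of its group and a single young OPr cell 12.4%. In young OPr 8 of 44 cells exceeded 5% and in old OPr 1 of 29, and without such cells the log2 ratio turned to 0.12. The 8 old OPr cells with hematopoietic markers had a pooled share of 1.51% and the other 21 a share of 1.84%, and without the 8 the log2 ratio was 0.015.

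The second comparison set sorted populations of one age side by side. AEC had a higher share than SEC, with a log2 ratio of 0.55 in young and 0.64 in old cells, the latter past 1.5-fold. AEC and SEC both line vessels, the former in arterioles of the endosteum and the latter in sinusoids of the central marrow. Where both came from library range 3, the log2 ratio was 0.26 in young and −0.18 in old cells, so the direction turned in the old. Over all cells the difference lay in the rRNAs, with log2 ratios of 0.79 in young and 0.88 in old cells, while those of the 13 mRNAs were 0.0046 and −0.027. Within range 3 the log2 ratio in old cells was 0.0049 for the rRNAs and −0.63 for the mRNAs, and in young cells 0.36 and 0.043. A single young AEC held 24.01% of the mRNA counts of its group there, and without it the young values were 0.26 and −0.33, so the mRNAs were then lower in AEC at both ages, and the share ratio was 0.078. The AEC medians differed by range, with 1.92%, 2.05% and 1.46% in ranges 1, 2 and 3 in young cells, and 2.47%, 1.95% and 1.17% in old cells. Outside range 3 AEC have no SEC beside them, and the population cannot be told apart from the range there.

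Among mesenchymal cells, the MSC-S and MSC-L of young mice had nearly equal shares (log2 ratio of MSC-S over MSC-L 0.064), and in old mice MSC-S were lower (−0.39, and −0.038 in library range 1 alone). For the 13 mRNAs alone these log2 ratios were −0.57 and −0.90. Young OPr were above young MSC-S (0.26) and old OPr above old MSC-S (0.22), but without cells over 5% these values were −0.18 and −0.072. Without the 8 cells with hematopoietic markers the old value was 0.29. mOPr were below OPr in young (−0.41) and old mice (−0.19), which turned to 0.055 and 0.11 without the cells over 5%. The order of OPr against the other endosteal cells thus rested on a few cells with a high share, most of them young OPr.

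The make-up of the mitochondrial counts also differed between the populations. The 2 rRNAs held the lowest part of the mitochondrial counts in young MSC-L, at 58.5%, and the highest in old AEC, at 79.3%. MSC-S (73.3% in young and 74.6% in old cells) lay near AEC (75.6% in young cells), while mOPr (65.1% and 66.95%), OPr (68.0% and 67.9%) and SEC (64.3% and 67.1%) lay between. Both populations of the central marrow, MSC-L and SEC, thus had a lower rRNA part than their counterparts of the endosteum, MSC-S and AEC.

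The log2 ratio of rRNA to mRNA counts in MSC-S over MSC-L was 0.96 in young and 0.73 in old cells, past 1.5-fold in both. In AEC over SEC it was 0.78 in young and 0.91 in old cells. Within library range 3 it was 0.64 in old cells and 0.32 in young cells, or 0.596 without the young AEC with 14.9%, so the side of 1.5-fold in young cells depended on a single cell. In old MSC-S over MSC-L it fell short of 1.5-fold in library range 1 alone, at 0.38.

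By gene, mt-Rnr2 held 49.8% of the mitochondrial counts in young MSC-L and 71.1% in old AEC, the ends of its range. mt-Cytb went the other way, from 21.4% in young MSC-L to 8.12% in old AEC. The medians over cells had the same ends, with mt-Rnr2 at 50.2% and 70.9% and mt-Cytb at 20.2% and 8.17%. mt-Co1 had its highest parts in SEC, 8.00% in young and 8.43% in old cells, against 5.34% and 5.13% in AEC. mt-Rnr1 had its lowest parts in SEC, 6.47% and 5.98%, and its highest in old MSC-S, at 10.6%.

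**Figure D3:**
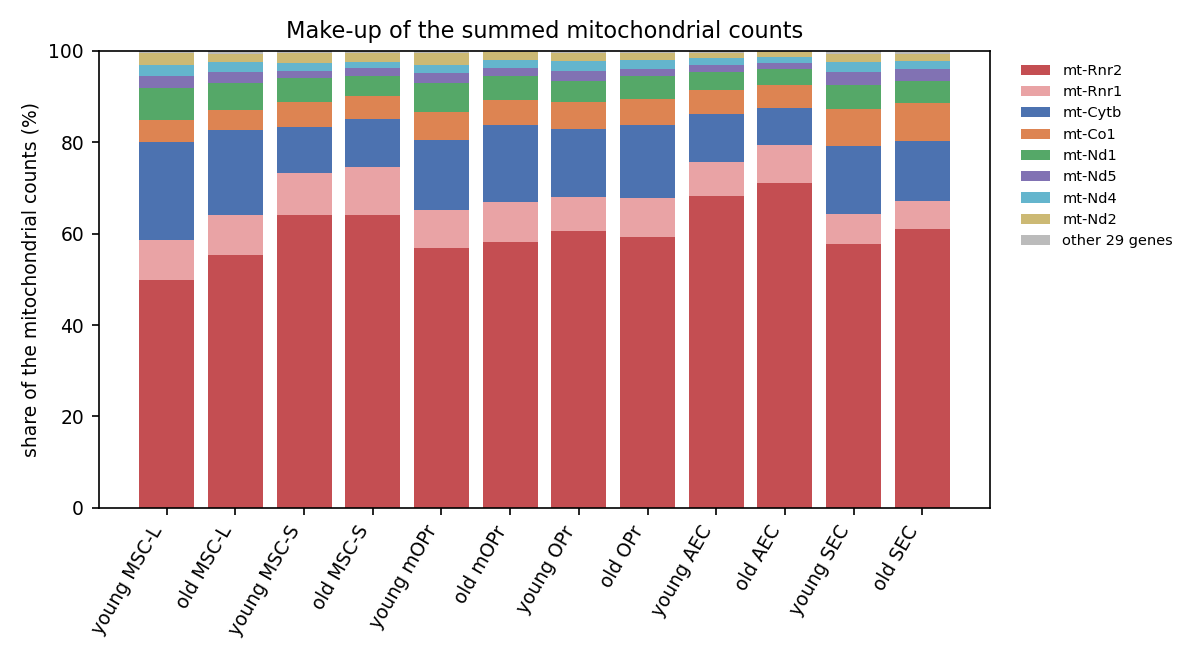
Make-up of the summed mitochondrial counts (vertical axis, percent) in the 12 groups of sorted population and age, with 1 stacked bar per group and 1 colour per gene for the 8 highest genes and grey for the other 29. mt-Rnr2, the bottom segment, is smallest in young MSC-L (49.8%) and largest in old AEC (71.1%), and mt-Cytb runs the opposite way (21.4% and 8.12%).

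Between ages, the rRNA part was higher in old MSC-L (64.02% against 58.5%) and in old AEC (79.3% against 75.6%). The log2 ratio of rRNA to mRNA counts, old over young, was 0.34 in MSC-L and 0.31 in AEC, 0.18 in SEC, 0.12 in mOPr, 0.099 in MSC-S and −0.0085 in OPr. All of these are short of 1.5-fold. In MSC-L mt-Rnr2 held 55.4% of the mitochondrial counts in old and 49.8% in young cells, while mt-Cytb held 18.6% and 21.4%. The higher share of old MSC-L was thus made up more of rRNA, and for the 13 mRNAs alone its log2 ratio was 0.23.

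The old OPr cells with hematopoietic markers differed in make-up. In these 8 cells rRNA held 85.0% of the mitochondrial counts, with a median over cells of 95.7%, against 63.2% in the other 21 old OPr cells (median 63.98%) and 68.0% in young OPr. Without the 8 cells, the old mOPr had a higher ratio of rRNA to mRNA than old OPr (log2 ratio 0.24), and with them a lower one (−0.062).

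Single mitochondrial genes were then compared between ages by CPM of nuclear counts with a pseudocount of 1, for genes that reached 100 counts over both groups and were seen in 5 cells or more. In MSC-L 12 genes passed that filter and 4 were higher by over 1.5-fold in old cells, where 24.6% of all genes tested were higher by over 1.5-fold. The 4 were mt-Nd6 (log2 ratio 0.80, from 59.3 to 104 CPM), mt-Co2 (0.65), mt-Co3 (0.63) and mt-Rnr2 (0.60, from 7356 to 11154 CPM). mt-Co2 had 55 counts in young and 85 in old cells, and mt-Co3 130 and 182. mt-Co2 and mt-Co3 are copied genes, so their calls, here and in the comparisons below, are of assigned counts and not of RNA amounts. Of the 12 genes 11 had a ratio above 0, with a median log2 ratio of 0.38 against 0.015 over all genes, and mt-Nd2, of complex I, was the exception at −0.11. In library range 1 alone 0 of 10 genes passed 1.5-fold (28.04% of all genes higher and 27.98% lower) and in range 2 alone 3 of 11 were higher (27.8% of all genes).

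Over all their cells the other populations had few mitochondrial genes past 1.5-fold. In MSC-S the tRNA genes mt-Tl1 (−0.92) and mt-Tp (−0.80) were lower in old cells, 2 of 14 tested against 21.2% of all genes. mt-Tl1 went from 106 to 45 counts and mt-Tp from 99 to 48, and within each range neither passed the filter, so neither was tested there. In range 1 mt-Nd6 was higher, 1 of 10 (25.9% of all genes higher and 29.5% lower). Of 11 genes in range 2, 0 passed 1.5-fold (20.5% of all genes higher and 22.8% lower). In OPr mt-Co3 (−0.73) and mt-Co2 (−0.59) were lower, 2 of 13 against 28% of all genes, and both are among the copied genes. Without the 8 cells with hematopoietic markers mt-Co2 alone was lower (−0.591, 1 of 13 against 26.1%). In SEC mt-Tq (0.81) was higher, 1 of 15 against 23.2%, and in mOPr and AEC 0 of 11 and 0 of 13 passed in either direction, against 63.7% (35.1% higher and 28.6% lower) and 39.9% of all genes (18.3% higher and 21.6% lower). The ranges of AEC did not share this, since 2 of 10 genes were higher in range 1 (against 25.98% of all genes), 1 of 12 lower in range 2 (24.2%) and 7 of 10 lower in range 3 (29.5%). Without the young AEC with 14.9%, 3 of 10 were lower in range 3, mt-Nd6 (−1.003), mt-Co3 (−0.86) and mt-Nd1 (−0.82), against 29.3%.

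The scaling of the counts bears on these values. With size factors from the median of ratios in place of CPM, the median log2 ratio over all genes was 0.21 in MSC-L (0.015 by CPM) and 0.20 in SEC (0.054 by CPM), and it hardly moved in mOPr (0.13, from 0.11) and OPr (0.13, from 0.14). Relative to it, the median of the mitochondrial genes was 0.86 in MSC-L, 0.23 in mOPr, 0.039 in SEC, −0.11 in MSC-S, −0.83 in AEC and −1.78 in OPr. By CPM the same quantity was 0.37 in MSC-L, −0.068 in mOPr, −0.18 in SEC, −0.033 in MSC-S, −0.078 in AEC and −0.28 in OPr. The direction was thus kept in MSC-L, MSC-S, AEC and OPr and turned in mOPr and SEC. Under size factors 9 of 12 genes were higher in old MSC-L (35.1% of all genes), 11 of 13 lower in old OPr (30.8%) and 9 of 13 lower in old AEC (22.7%). A single old OPr cell then made up 36.7% of the scaled mitochondrial sum of its group, a single young OPr cell 30.2% and a single young AEC cell 33.3%.

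Between populations, old MSC-S and MSC-L differed in the most mitochondrial genes. In old MSC-S 9 of 13 genes tested were lower than in old MSC-L by over 1.5-fold, against 43.6% of all genes (67.1% either way). They were led by mt-Nd6 (−1.27), mt-Cytb (−1.23), mt-Tl1 (−1.13) and mt-Co2 (−1.07), and they hold mt-Nd4 (−0.96) and mt-Nd5 (−0.87) of complex I. The rRNAs mt-Rnr1 (−0.10) and mt-Rnr2 (−0.19) were not among them. The median over the 13 genes was −0.87, against −0.37 over all genes.

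The library ranges, taken alone after seeing the data, differed in this comparison. In range 2 alone 7 of 11 genes were lower (44.4% of all genes), led by mt-Cytb (−1.53). In range 1 alone 3 of 10 were lower (40.6%), mt-Nd5 (−0.85), mt-Nd6 (−0.74) and mt-Co3 (−0.69), mt-Rnr1 was higher (0.63), and mt-Cytb (−0.53) and mt-Nd4 (−0.29) fell short of 1.5-fold.

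In young mice 3 genes were lower in MSC-S than in MSC-L and 2 higher, of 14 tested, where 41% of all genes were lower and 23.8% higher by over 1.5-fold (64.8% either way). mt-Cytb (−1.02), mt-Nd5 (−0.62) and mt-Nd6 (−0.61) were the lower genes, and the tRNA genes mt-Tl1 (1.26) and mt-Tp (0.79) the higher. Within the ranges 2 of 9 genes were lower in range 1, mt-Nd6 (−1.53) and mt-Cytb (−0.93), and 2 of 11 in range 2, mt-Cytb (−1.07) and mt-Nd5 (−0.66), against 38.7% and 42.5% of all genes. Young and old MSC-S thus had less mt-Cytb per nuclear count than MSC-L of the same age in both ranges, with its old value in range 1 short of a call.

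In young OPr over MSC-S 6 of 14 genes were higher, mt-Co3 (1.01), mt-Cytb (0.82), mt-Nd6 (0.81), mt-Nd5 (0.74), mt-Nd4 (0.64) and mt-Co2 (0.60), and mt-Tp (−0.91) was lower, where 28.5% of all genes were higher and 27.3% lower (55.8% either way).

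The 2 rRNAs were the genes higher in AEC than in SEC at either age. mt-Rnr2 had a log2 ratio of 0.80 in young and 0.87 in old cells and mt-Rnr1 of 0.76 and 1.12, and mt-Co3 was lower (−0.80 and −1.25). These are 2 higher and 1 lower of 13 genes tested at each age, where 30.6% of all genes were higher and 25.4% lower in young cells (56% either way) and 26.5% higher and 29.7% lower in old cells (56.3% either way). Within library range 3, chosen after seeing the data, the calls of the rRNAs were lost, with mt-Rnr2 at 0.38 in young and −0.025 in old cells and mt-Rnr1 at 0.17 and 0.26. In young cells 0 of 12 genes passed there (27.1% of all genes higher and 34.1% lower), or 1 of 12 without the young AEC with 14.9%, mt-Nd5 (−0.61), and in old cells 6 of 11 were lower, led by mt-Nd6 (−0.98), against 37.96% of all genes.

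In old OPr over MSC-S 2 of 11 genes were higher, mt-Cytb (0.82) and mt-Nd4 (0.61), against 38.2% of all genes (64.7% either way). Without the 8 cells with hematopoietic markers 5 of 11 were higher, led by mt-Cytb (1.07), against 40.3%. In mOPr over OPr 2 of 13 genes were lower in young cells, mt-Co3 (−0.91) and mt-Nd4 (−0.74), against 29.4% of all genes (57.4% either way). In old cells 0 of 11 passed, where 30.5% of all genes were higher and 32.8% lower (63.3% either way), and without the 8 cells mt-Nd6 alone was lower (−0.82), against 33.7%.

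The nuclear genes of the same complexes were counted next, and in old MSC-L most had ratios below 0, as they did in old MSC-S, SEC and AEC. Of 72 nuclear subunits of complexes I, III, IV and V, 71 could be tested in each population. In old MSC-L, where the mitochondrial share was higher, 2 subunits were higher and 13 lower by over 1.5-fold, against 46.5% of all genes either way. Ratios below 0 numbered 49 there, 48 in SEC, 39 in AEC and 51 in MSC-S, where the median over all genes was −0.056. The median log2 ratio of the subunits in MSC-L was −0.15, against 0.015 over all genes. With size factors 9 were higher and 13 lower (35.1% and 20.4% of all genes), and the median was −0.091. The accessory complex I subunit Ndufa1 (−1.59), Ndufb9 (−1.01) and Ndufs3 (−0.96), the complex V subunit Atp5h (−0.97) and the complex IV subunit Cox8a (−0.81) were among the lower ones. Ndufab1, the mitochondrial acyl carrier protein, was the furthest in the other direction (2.11).

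By complex and by CPM, in old over young MSC-L where 24.6% of all genes were higher and 22% lower by over 1.5-fold, complex I had 2 subunits higher and 8 lower of 36 (median −0.19) and complex III 0 of 9 either way (−0.31). Complex IV had 2 lower of 11 (−0.28) and complex V 3 lower of 15 (−0.10). Complex II, which has no mitochondrially encoded subunit, had 1 lower of 4, Sdhc (−0.69), with a median of −0.30. Medians of all 5 complexes were thus below 0 in MSC-L while 11 of 12 mitochondrial genes were above it. The library ranges differed in this contrast. In range 1 alone the median was −0.042 for the nuclear subunits and 0.15 for the mitochondrial genes (−0.0091 over all genes). In range 2 alone these were −0.34 and 0.35 (0.0032 over all genes).

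By CPM the medians of the 71 subunits lay closer to 0 in MSC-S, mOPr, OPr and AEC, and that of SEC was near that of MSC-L. With size factors those of MSC-S (−0.16), mOPr (0.27) and OPr (−0.39) were further from 0 than that of MSC-L, so the order depends on the scaling. They were −0.12 in MSC-S (1 higher and 2 lower, against 38.3% of all genes either way), −0.17 in SEC (2 and 4, against 39%; 0.044 with size factors) and −0.014 in AEC (1 and 2, against 39.9%). In mOPr 13 were higher and 7 lower (median 0.092, against 63.7% either way) and in OPr 13 and 12 (0.029, against 64.1%). In library range 1 alone these medians turned to −0.30 and −0.038. With size factors OPr had 9 higher and 28 lower (36.9% and 30.8% of all genes) and mOPr 20 and 6 (35.1% and 27.9%). MSC-S then had 2 and 8 (16.7% and 22.3%) and AEC 6 and 7 (18.2% and 22.7%). Without the 8 cells with hematopoietic markers OPr had 20 higher and 5 lower (0.22, against 37.7% and 26.1% of all genes). Over all cells and by CPM, the counts in MSC-S, AEC and SEC were small beside their backgrounds. In library range 1 alone AEC had 12 higher and 20 lower of 71 (25.98% and 33.8% of all genes). In range 2 alone it had 11 and 5 (24.4% and 24.2%). In range 3 alone it had 5 and 18 of 64 (27.2% and 29.5%), with a median of −0.33.

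The protein subunits of the mitochondrial ribosome, whose RNA core is mt-Rnr1 and mt-Rnr2, had 8 of 75 higher and 18 lower in old MSC-L, against 24.6% and 22% of all genes, with a median log2 ratio of −0.24, while both rRNAs had ratios above 0. Their medians elsewhere were −0.085 in SEC, −0.077 in AEC, −0.064 in MSC-S, −0.045 in mOPr and −0.038 in OPr, and with size factors those of SEC (0.11), mOPr (0.014) and OPr (0.050) were above 0. In library range 2 alone those of mOPr (0.24), OPr (0.11) and AEC (0.053) were above 0 by CPM. In range 3 alone that of AEC was −0.37, and in range 1 alone that of MSC-L was −0.57. In OPr without the 8 cells with hematopoietic markers the median was 0.30 by CPM. In MSC-L, Mrps10 (−2.02) and Mrps18b (−1.83) were among the lowest and Mrps27 (2.04) and Mrpl23 (1.55) among the highest. The list thus spread in both directions.

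Tfam, Polrmt, Lrpprc and Ppargc1a, factors of mitochondrial gene expression and biogenesis, were each seen in a minority of the cells of every group. The widest was Lrpprc, in 26 of 53 young MSC-L. Tfam, which packages mitochondrial DNA and starts its transcription, was lower by over 1.5-fold in old MSC-S (log2 ratio −0.93, from 15.2 to 7.50 CPM) and old SEC (−0.68, from 39.1 to 24.1 CPM). In MSC-L it had a log2 ratio of −0.50 (33.6 to 23.4 CPM), in OPr of −0.34, in AEC of −0.078 and in mOPr of −0.019. A single young MSC-S cell held 47.7% of the Tfam counts of its group and a single old one 45.6%. Without the young cell the log2 ratio in MSC-S was −0.092 and without the top cell of each age −0.82. In SEC these values were −0.48 and −0.85, so both calls rested in part on single cells, and the AEC and hematopoietic markers of SEC moved with age as given above (leaving out such cells was chosen after seeing the data).

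The Tfam ratios short of 1.5-fold did so too. In OPr a single young cell held 77.1% of the Tfam counts and the log2 ratio was 1.48 without it, and 0.047 without the 8 cells with hematopoietic markers. In mOPr a single old cell held 97.2%, with −3.63 without it, and in MSC-L the value was −0.89 without the top old cell. In AEC it was 0.39 without the top young cell and −0.62 without the top old one.

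Polrmt, the RNA polymerase of mitochondria, was lower in old MSC-S (−2.31), mOPr (−1.08) and AEC (−1.03) and higher in old OPr (2.60). Only 6 of 29 old OPr cells held counts of Polrmt, and a single cell held 43.2% of them. In mOPr a single young cell held 71.2% of the counts and a single old cell 73.3%, and without the young cell the log2 ratio turned to 0.51. Without the top cell of each age it was −1.03 in mOPr, −2.30 in MSC-S, −1.05 in AEC and 2.74 in OPr. In OPr it was 3.01 without the 8 cells with hematopoietic markers, none of which held counts of Polrmt.

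Lrpprc, which stabilises mitochondrial mRNAs, was higher in old MSC-L (0.77, from 25.3 to 43.6 CPM) and lower in old MSC-S (−0.998) and mOPr (−1.30). A single old mOPr cell held 64.5% of the Lrpprc counts of its group. The log2 ratio in mOPr was −2.63 without it and −2.26 without the top cell of each age. Ppargc1a, a coactivator that drives the making of mitochondria, was higher in old AEC (1.71), where 4 of 82 cells held it, and in old OPr (1.04), where 3 of 29 did. Without the old cell that held the most counts of the gene, Lrpprc in MSC-L had a log2 ratio of 0.52 and Ppargc1a in OPr one of 0.078, both short of 1.5-fold. Ppargc1a in AEC had 0.64 without the top old cell (54.8% of its counts) and 3.23 without the top young one (76.3%). Without the 8 cells with hematopoietic markers Ppargc1a in OPr had 1.41, and Lrpprc in OPr went from 0.498 to 0.89, past 1.5-fold. A single cell held 47.6% of the Lrpprc counts of all old OPr. Without that cell the log2 ratio over all OPr turned to −0.31, and without the top cell of each age it was 0.26.

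The lists of these factors moved in both directions in MSC-L. Of the 8 mitochondrial transcription factors tested, 2 were higher, Tfb2m (1.52) and Mterf4 (0.91), and 1 was lower, Tefm (−0.89). Among 5 replication factors, Peo1, the helicase, was higher (1.93) and Polg2, the accessory subunit of the polymerase, lower (−1.53). Of 18 genes of mitochondrial RNA processing and stability, 6 were higher, such as Pde12 (1.81) and Grsf1 (1.30), and 5 lower, such as Fastkd3 (−2.06) and Hsd17b10 (−1.63).

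Of 9 mitochondrial chaperones and proteases, 3 were higher in old MSC-L, the protease subunit Afg3l2 (0.94), the chaperone Hspd1 (0.88) and the protease Lonp1 (0.87), and Trap1 was lower (−1.17), with a median of 0.48. Of the 5 regulators of mitochondrial biogenesis tested, 2 were higher, the transcription factors Gabpa (0.73) and Esrra (0.67), and the coactivator Ppargc1b was lower (−1.35). All of these counts stand beside the 46.5% of all genes that passed 1.5-fold in MSC-L (24.6% higher and 22% lower).

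Median shares differed more between the authors' ICGS clusters, 16 mesenchymal (M1 to M16) and 7 endothelial (E1 to E7), than between ages. In the paper M1 and M2 are MSC-L-like, M3 to M5 OPr-like, M6 to M16 MSC-S-like, E3 and E4 AEC-like and E7 SEC-like. The clusters were built from these same cells, and mt-Rnr2 is a guide gene of the endothelial clustering, so the values describe the clusters and test nothing.

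M2 had the highest median share of the mesenchymal clusters, at 2.44% over 50 cells from 0.664% to 8.87%, and M1, the other MSC-L-like cluster, was lower, at 1.22% over 86 cells from 0.499% to 3.23%. The log2 ratio of the summed share against the other mesenchymal cells was 0.53 for M2 and −0.48 for M1. Among sorted MSC-L of library range 2 alone these were 1.18 and −1.13. M2 cells also had fewer counts (median total 294928 against 467784 in M1) and fewer genes when each cell was thinned to 50000 counts (median 3281 against 4458). The part of depth in the difference was not tested.

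M2 was not uniform. Its 23 old and 12 young MSC-L had pooled shares of 3.28% and 2.48%, its 10 old mOPr 1.52% and its 3 old OPr 1.04%. For this reason the whole of M2 had a lower share in old (2.17%) than in young mice (2.43%), while its MSC-L had a higher one.

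M5 had the widest spread of the mesenchymal clusters, from 0.0148% to 13.1% with a median of 1.67% over 65 cells, and held 10 of the 21 cells over 5%. Its log2 ratio against the other mesenchymal cells was 0.77, but 0.29 between medians and 0.33 without cells over 5%, so a minority of cells set the value. The median number of genes at 50000 counts was 2636 in M5, below M1 and M2. The young OPr of M5 had a median share of 5.62% (14 cells) and the old OPr of M5 one of 1.36% (15 cells). Of those 15 cells 8 were the ones with hematopoietic markers, and the median of the other 7 was 2.83%.

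Of the other OPr-like clusters, M3 had a median of 1.54% (16 cells, 1.09% to 1.98%) and M4 of 1.09% (13 cells, 0.692% to 3.33%), the latter among the lower values. Among the larger MSC-S-like clusters M16 had a median of 1.58% (36 cells), M15 of 1.32% (17 cells), M7 of 1.31% (15 cells), M9 of 1.24% (10 cells) and M12 of 1.19% (27 cells). M6, with 5 cells, was the lowest of the clusters with at least 5 cells, at 0.800%. The median of M6 lay below the lowest cells of M3, M7, M9, M12 (0.804%) and M16. That of M4 lay just below the lowest cell of M3. The log2 ratio of M16, the largest MSC-S-like cluster, was 0.018.

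Among endothelial clusters, E2 (8 cells, called pericytes by the authors) had a median of 2.28%, E3 of 2.23% (60 cells), E5 of 1.85% (37 cells), E4 of 1.67% (59 cells), E7 of 1.46% (105 cells), E6 of 1.14% (24 cells) and E1 of 1.10% (14 cells, called doublets by the authors). Of the 2 AEC-like clusters E3 was thus above E4, with log2 ratios of 0.42 and −0.058 against the other endothelial cells, but among AEC of library range 2 alone these were 0.060 and −0.20. E7, the SEC-like cluster, had a log2 ratio of −0.40, but among SEC of library range 3 alone it was above the other cells (0.34).

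**Figure D4:**
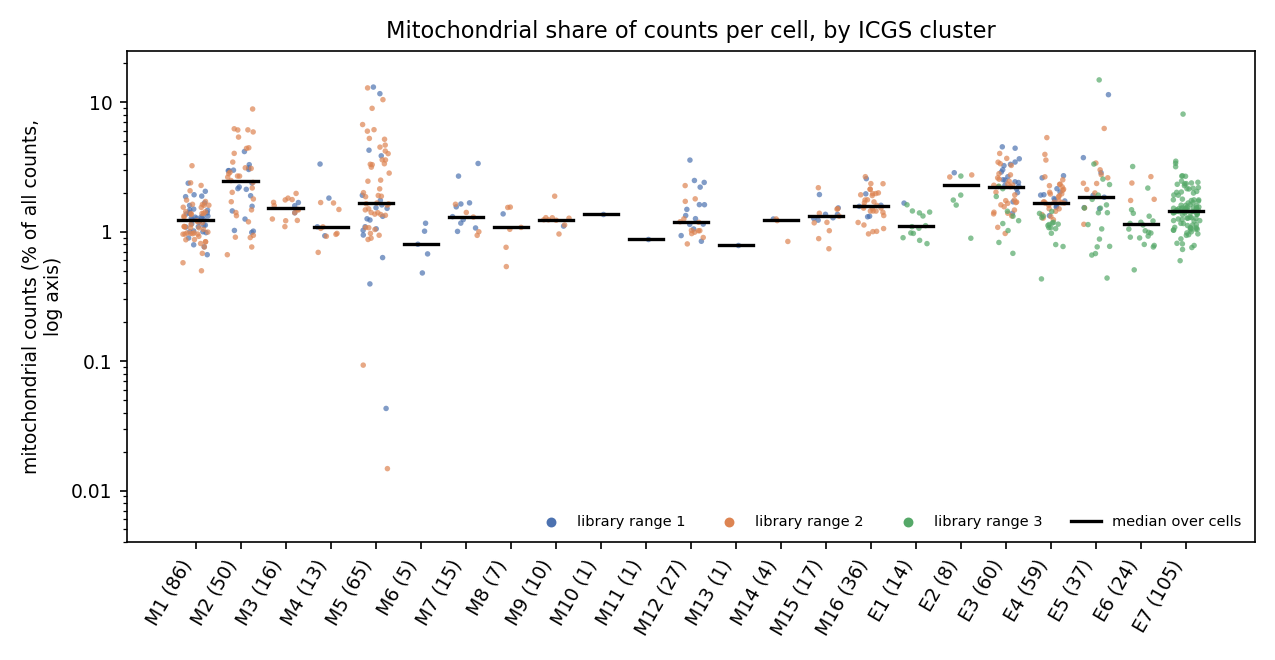
Mitochondrial share of all counts per cell (log axis, percent) by deposited ICGS cluster, 1 point per cell, coloured by library range, with cell numbers in parentheses and a bar at the median over cells. M2 has the highest median of the mesenchymal clusters (2.44%), M5 has the widest spread of these (0.0148% to 13.1%), and among endothelial clusters E3 (2.23%) lies above E4 (1.67%) and E7 (1.46%).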

How the data were processed

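Per the labels, the authors sorted single cells into plates, amplified cDNA primed with oligo-dT over 21 PCR cycles without molecular identifiers, mapped reads with GSNAP (2015-09-29), keeping reads with 1 location, to GRCm38.p4, assigned them to genes by HTSeq ignoring strand, and deposited counts without normalization. Here 46078 table entries were summed by symbol, 270 of them repeats. Shares are summed mitochondrial counts over summed counts of a group, with exact Clopper-Pearson 95% intervals, which cover counting error only. CPM used nuclear counts, a pseudocount of 1 CPM, and genes that reached 100 counts over both groups and were seen in 5 cells or more. Called means past 1.5-fold. Cells are not replicates, so no test was run. Named genes were all mitochondrial genes and their annotated nuclear copies, up to 3 genes with the largest and 3 with the smallest ratio of each nuclear list in a population, and Tfam, Polrmt, Lrpprc and Ppargc1a. Members and lists were chosen with earlier results of these data known. The ratio and call steps were tested on simulated counts. Software was Python 3.11.15 with scipy 1.17.1, pandas 2.3.3 and numpy 2.4.6, and figures were drawn with matplotlib 3.10.9.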

Additional observations from a re-analysis of the deposited data

How the results depend on the processing

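Of 434 values under alternatives, 317 kept their direction and their side of 1.5-fold, or stayed within 1.5 times the main count. The log2 share ratio of old over young MSC-L lay between 0.23 and 0.50 under every alternative run. M1 alone, M2 alone, leaving out cells over 5 percent, each range alone and leaving out hematopoietic-marker cells for single genes between populations or regulators in OPr, leaving out the top cell of a regulator and leaving out the young AEC of highest share in range 3 were added after seeing the data. Where no value bears on it, the cause was not tested. No paired analysis was possible because the labels name no mouse that would pair young with old cells, and ratios within each library range are given instead. A split of M15 by library range and Ppargc1a in OPr without the top cell of each age gave no value. The tRNA genes and the genes copied over nearly their whole length had few counts, and the part of depth in that was not tested.

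For the log2 share ratio of old over young, the direction turned in MSC-S in library range 1 (0.27), in identity clusters (0.048) and without cells over 5% (0.011); in mOPr by medians (−0.050); in OPr in range 1 (0.30), without hematopoietic-marker cells (0.015), in identity clusters (0.19) and without cells over 5% (0.12). It turned in AEC by medians (−0.017), in range 3 (−0.42, and −0.25 without the young AEC of highest share) and for mRNA alone (−0.14), and in SEC by medians (−0.056), without cells under 100000 counts (−0.019), for mRNA alone (−0.11) and without cells over 5% (−0.019).

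Between populations, the share ratio of young MSC-S over MSC-L turned for mRNA alone (−0.57) and in identity clusters (−0.050), and the old one passed 1.5-fold for mRNA alone (−0.90). Young OPr over MSC-S passed it by means (0.69) and turned without cells over 5% (−0.18). Old OPr over MSC-S turned by medians (−0.11), without the top cell (−0.040) and without cells over 5% (−0.072), and passed 1.5-fold in identity clusters (0.69). Young mOPr over OPr passed it by means (−0.91) and in identity clusters (−0.61) and turned without cells over 5% (0.055). Old mOPr over OPr turned by medians (0.18), in range 2 (0.13), without the top cell (0.055) and without cells over 5% (0.11), and passed 1.5-fold in range 1 (−0.62). Young AEC over SEC passed it without mostly copied genes (0.61). Old AEC over SEC fell short by means (0.47), by medians (0.43), in identity clusters (0.50) and without cells over 5% (0.58), and turned in range 3 (−0.18) and for mRNA alone (−0.027).

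The ratio of rRNA to mRNA turned in mOPr in range 2 (−0.012), in OPr by means (0.35) and in range 1 (0.21), and in old mOPr over OPr without hematopoietic-marker cells (0.24) and in range 2 (0.041). It fell short of 1.5-fold in old MSC-S over MSC-L by means (0.58) and in range 1 (0.38) and in young AEC over SEC in range 3 (0.32), and passed it in old OPr over MSC-S without hematopoietic-marker cells (−0.78) and in range 2 (−0.60).

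The number of mitochondrial genes past 1.5-fold between ages moved in MSC-L to 0 (range 1), 9 (size factors) and 7 (no filter), in MSC-S to 1 (range 1) and 0 (range 2), and in mOPr to 1 (range 1), 2 (range 2) and 4 (no filter). It moved in OPr to 4 (mean CPM), 1 (without hematopoietic-marker cells) and 11 (size factors), in AEC to 2 (mean CPM), 2 (range 1), 1 (range 2), 7 (range 3), 3 (range 3 without the young AEC of highest share) and 9 (size factors), and in SEC to 2 (no filter). Between populations, the number moved in MSC-S over MSC-L to 2 and 2 (young, ranges 1 and 2) and 4 (old, range 1), in OPr over MSC-S to 4 (young, range 2), 1 and 1 (old, ranges 1 and 2) and 5 (old, without hematopoietic-marker cells), in mOPr over OPr to 4 (young, range 1) and 3, 1 and 1 (old, the same order as the old OPr over MSC-S), and in AEC over SEC in range 3 to 0 (young), 1 (young, without the AEC of highest share) and 6 (old). Fewer cells in a range leave fewer genes tested. Polrmt in old over young mOPr turned without the top young cell (0.51).

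The number of nuclear subunits past 1.5-fold moved in MSC-L to 24 (mean CPM), 28 (range 1) and 26 (range 2), in MSC-S to 7, 17 and 7 in the same order, in mOPr to 35 (range 2), in OPr to 39 (range 1) and in AEC to 7 (mean CPM), 32, 16 and 23 (ranges 1, 2 and 3). Their median turned in mOPr in range 1 (−0.30), in OPr by mean CPM (−0.11) and in range 1 (−0.038), and in AEC by mean CPM (0.034) and in range 2 (0.14).

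By cluster, medians gave E1 −0.52, E4 0.13, M2 0.87, M3 0.15 and M5 0.29, and leaving out cells over 5% gave M3 0.031, M5 0.33 and M7 0.039. Within the main population and range the values were E1 −0.30, E7 0.34, M1 −1.13, M2 1.18 and M7 0.13.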

Other observations

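Cells at the ends of the share are listed as values. The highest share was 14.9%, in a young AEC of cluster E5 with 93442 counts, where rRNA held 42.2% of the mitochondrial counts. An old OPr of M5 had 13.1% and a young OPr of M5 12.9%. The lowest share was 0.0148%, 36 of 243869 counts in an old MSC-S of M5. An old OPr of M5 had 35 mitochondrial counts of 81274 (0.0431%) and a young OPr of M5 853 of 916515 (0.0931%).

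Within each of the 12 groups, Spearman correlations across cells are given as a description, since cells of a group share mice and plates. mt-Rnr2 and mt-Rnr1 went together in all 12 groups, with rho from 0.62 to 0.91 (median 0.81), and mt-Rnr2 and mt-Cytb with rho from 0.23 to 0.84 (median 0.45). The share of nuclear respiratory subunits followed the mitochondrial share weakly, with rho from −0.29 to 0.51 (median 0.20, above 0 in 8 groups). The counts of the annotated nuclear copies followed it with rho from 0.24 to 0.76 (median 0.65). The mitochondrial share was lower in cells with more counts in 10 of 12 groups, with a median rho of −0.33.

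Of the other lists, the immediate early genes had 0 of 10 higher and 2 lower by over 1.5-fold in old MSC-L (median log2 ratio −0.19), where 24.6% of all genes were higher and 22% lower. The nuclear-retained RNAs had 2 of 3 higher there (0.69) and 3 of 4 lower in old OPr, where 28% of all genes were lower. The erythroid markers summed to 100.0 CPM in old and 26.4 CPM in young MSC-L, with Hbb-bs the highest in both, and their part in the share was not tested.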
